A study of Mus musculus with 9 samples.

Results

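The circadian clock genes of the mouse heart described here are 10 genes chosen by name: the transcriptional activators Arntl, Npas2 and Clock, the nuclear receptors Nr1d1 and Nr1d2, the period genes Per1, Per2 and Per3, the clock output gene Dbp and the repressor gene Ciart. All 10 were among the 13646 genes present in both deposited gene tables, and the rule that chose them gives names and uses no measured value, although it was written with earlier results of these data known. RNA was measured in heart tissue of male C57BL/6 mice, 10 weeks old per the labels, taken 21 days after surgery, with 3 mice in each of 3 groups. The heart chambers sampled are not stated. The TAC+PUE mice underwent transverse aortic constriction (TAC), which obstructs the outflow of the left ventricle and leads to hypertrophy, and were injected intraperitoneally each day with puerarin (PUE), a plant isoflavone, starting 3 days ahead of the operation, at a daily dose of 100 mg/kg. The TAC mice had the same constriction and received saline, and the sham mice had the operation without the constriction and received saline. No source used here gives the clock time at which each heart was taken, so a difference in collection time and a difference between groups, or between mice, cannot be told apart for these genes.

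The circadian clock is a transcriptional feedback loop that runs in nearly every cell, cardiomyocytes included. A dimer of BMAL1, the product of Arntl, with CLOCK or its paralog NPAS2 binds E-box DNA and activates the Per, Cry, Nr1d, Dbp and Ciart genes. PER and CRY proteins, and CHRONO, the product of Ciart, then repress the dimer, while the REV-ERB receptors made from Nr1d1 and Nr1d2 repress Arntl and Npas2. As background, transcripts of Arntl and Npas2 peak in the mouse heart at about the opposite time of day to those of the Per and Dbp genes.

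The regulatory sequences of the 9 members found in a RefSeq promoter table (build GRCm38.p6) were searched on both strands over 250 bases before each of 13 start sites for the E-box CACGTG, the related CACGTT, the D-box TTATGNAA (bound by DBP, TEF and HLF), the REV-ERB and ROR element TAGGTCA, and the cAMP response element TGACGTCA. These letters occurred in 6.02, 3.85, 3.07, 2.23 and 1.55% of the 32851 windows of that length in the table, in the same order. Ciart held 3 E-boxes, at bases -116 to -111, -58 to -53 and -44 to -39 from its start. Per3 held 2 D-boxes, Per1 held 1 E-box and 1 D-box, and Nr1d1 held CACGTT on the minus strand of the gene. None of the 5 strings was found in the windows of Arntl, Clock, Npas2, Nr1d2 or Dbp. Ciart is shown because it had the densest E-boxes and the largest fold difference between TAC and sham hearts, and the shorter pieces show the matches of the others (5′ to 3′ on the strand of the gene, matches in capitals, minus strand for Ciart, Per3 and Nr1d1 and plus strand for Per1).
Ciart, chr3:95882258-95882478: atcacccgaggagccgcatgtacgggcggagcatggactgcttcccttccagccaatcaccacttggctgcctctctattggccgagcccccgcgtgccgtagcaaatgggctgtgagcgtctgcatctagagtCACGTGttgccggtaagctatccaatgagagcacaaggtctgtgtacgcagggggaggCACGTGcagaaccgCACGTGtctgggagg
Per3 distal D-box, chr4:151044852-151044881: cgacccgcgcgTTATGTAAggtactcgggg
Per3 proximal D-box, chr4:151044805-151044834: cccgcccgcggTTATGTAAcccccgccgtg
Per1 E-box, chr11:69098771-69098800: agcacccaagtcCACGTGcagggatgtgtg
Per1 D-box, chr11:69098914-69098943: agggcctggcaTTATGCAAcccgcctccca
Nr1d1 CACGTT read on the other strand, chr11:98775388-98775417: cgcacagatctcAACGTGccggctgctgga
The Ciart piece lies within the lncRNA gene C920021L13Rik, and the distal D-box of Per3 lies at the edge of the gene Gm38529. A match is a description of these letters and not a measured binding site.

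Expression was given as FPKM, fragment counts scaled by transcript length and by the number of mapped fragments, which allows levels of different genes to be set side by side. Averaged over the 9 hearts, Nr1d1 was the most abundant of the 10 genes at 36.2 FPKM, followed by Dbp at 27.1, Nr1d2 at 19.9, Per1 at 10.6, Clock at 4.16, Per3 at 4.02, Per2 at 3.71, Ciart at 2.23, Arntl at 1.85 and Npas2 at 1.55 FPKM. The depth of each library is unknown. The libraries differed in ways that bear on any gene: the 13 mitochondrially encoded mRNAs took 14.2 to 26.0% of summed FPKM in TAC+PUE hearts, 2.81 to 7.04% in TAC hearts and 31.6 to 42.9% in sham hearts, and the rRNA-like transcripts Gm26917 and Gm42418 took 1.11 to 2.52%, 4.81 to 7.50% and 0.520 to 1.11% in the same group order. Rescaling the libraries without the rRNA-like transcripts moved the median over all genes of the log2 fold change between TAC and sham hearts to 0.28, against -0.12 as deposited, with 5596 genes called higher and 2496 lower, against 2955 and 4410. Cardiomyocyte markers summed to 5040 to 5666, 6628 to 8315 and 5005 to 5557 FPKM, which fits the heart label, and 0 of 3 lung markers were in the tables. The atrial myosin light chain Myl7 was at 27.4 to 708 FPKM in TAC+PUE hearts, 1.60 to 198 FPKM in TAC hearts and 0.857 to 1.07 FPKM in sham hearts. Its part in the clock values was not tested. In whole tissue, fewer cells of a type and less RNA per cell cannot be told apart.

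**Figure D1:**
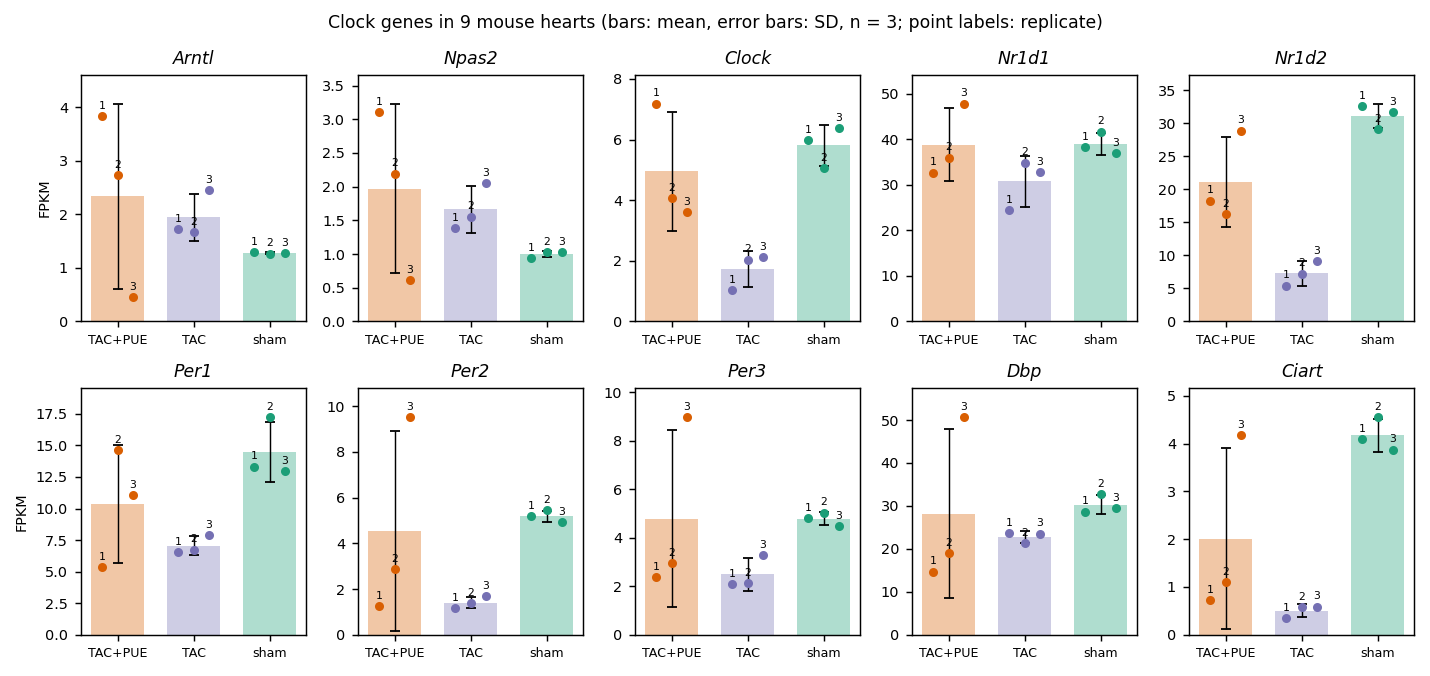
FPKM of the 10 clock genes in each heart, 1 panel per gene, with bars for the group mean and error bars for the SD (n = 3) and points numbered by replicate. The sham points sit close together, the TAC points stand apart from them in every panel, and TAC+PUE replicate 3 lies far from replicates 1 and 2 for Arntl, Npas2, Per2, Per3, Dbp and Ciart.

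In TAC hearts the clock genes did not move one way. Arntl and Npas2 were higher than in sham hearts, while Clock, Nr1d2, Per1, Per2, Per3, Ciart and, except with the rRNA-like transcripts removed, Dbp were lower, so 2 of the 10 genes passed the test upward, 7 downward and 1, Nr1d1, did not pass (limma on log2(FPKM + 1), Benjamini-Hochberg adjusted p under 0.05 over 11687 genes). Of all genes tested in this comparison, 63.0% passed, 25.3% as higher and 37.7% as lower. The median log2 fold change of the 10 genes was -0.84, against -0.12 for all genes. For all 10 genes the TAC and sham values did not overlap, 2 being higher and 8 lower, and this was also true of 70.3% of all genes tested (28.4% higher and 41.9% lower).

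Arntl (ENSMUSG00000055116.8), the gene of the BMAL1 subunit of the activator, had 1.72, 1.66 and 2.45 FPKM in TAC hearts, against 1.29, 1.27 and 1.27 FPKM in sham hearts. Each TAC heart lay above each sham heart, and the sham values were almost the same. The log2 fold change was 0.36 (SE 0.12, adjusted p = 0.027, limma). Npas2 (ENSMUSG00000026077.15), the paralog of Clock, had 1.38, 1.56 and 2.05 FPKM in TAC hearts, against 0.943, 1.03 and 1.03 FPKM in sham hearts. Each TAC heart was again above each sham heart, with replicate 3 the highest for both genes. Its log2 fold change was 0.41 (SE 0.12, adjusted p = 0.012, limma). Both genes were near 1 FPKM in sham hearts, where the added 1 FPKM understates a change, and the ratio of mean FPKM was 1.52 for Arntl and 1.66 for Npas2. The call for Arntl was lost without any one of the sham hearts (adjusted p = 0.079, 0.075 and 0.084 without replicates 1, 2 and 3), that for Npas2 without sham replicate 1 (adjusted p = 0.056), and both in a joint fit of the 9 hearts (adjusted p = 0.37 and 0.20). Their direction was the same under every scaling tried.

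Clock (ENSMUSG00000029238.11), which encodes the histone acetyltransferase partner of BMAL1, went the other way from its paralog. It had 1.04, 2.04 and 2.11 FPKM in TAC hearts, against 5.99, 5.07 and 6.37 FPKM in sham hearts. Even the highest TAC heart was well below the lowest sham heart, and TAC replicate 1 was the lowest of all. The log2 fold change was -1.34 (SE 0.17, adjusted p = 1.42e-04, limma), and the mean FPKM was 0.298 of the sham mean. Measured within each heart, the ratio of Npas2 to Clock was 1.33, 0.763 and 0.971 in TAC hearts, against 0.157, 0.203 and 0.162 in sham hearts. In TAC hearts the paralogs were thus at similar levels per length, while in sham hearts Clock was several times more abundant than Npas2, and a ratio within a heart does not depend on how the library was scaled.

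Nr1d2 (ENSMUSG00000021775.11), the gene of REV-ERBβ, had 5.42, 7.25 and 9.16 FPKM in TAC hearts, against 32.6, 29.1 and 31.8 FPKM in sham hearts. The groups were far apart, with a log2 fold change of -1.98 (SE 0.16, adjusted p = 2.62e-05, limma). Nr1d1 (ENSMUSG00000020889.11), the gene of REV-ERBα, had 24.4, 34.9 and 32.9 FPKM in TAC hearts, against 38.3, 41.7 and 36.9 FPKM in sham hearts. The TAC values lay below the sham values, but replicates 2 and 3 came close to them. The log2 fold change was -0.35 (SE 0.15, adjusted p = 0.060, limma), it passed without TAC replicate 2 (adjusted p = 0.033), it changed sign to 0.14 when the rRNA-like transcripts were removed, and it passed at -0.48 (adjusted p = 0.0030) when the mitochondrial mRNAs were removed as well. The ratio of Nr1d2 to Nr1d1 within a heart was 0.222, 0.208 and 0.279 in TAC hearts, against 0.852, 0.699 and 0.861 in sham hearts, so Nr1d2 was lower relative to Nr1d1 in each TAC heart than in any sham heart. Nr1d1 overlaps the gene Thra on the opposite strand in the RefSeq table, and since it is not stated that strand was used in counting, its values are uncertain.

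The period genes, whose proteins carry the repression back to the activator, were all lower in TAC hearts. Per2 (ENSMUSG00000055866.9) had 1.18, 1.37 and 1.67 FPKM in TAC hearts, against 5.18, 5.43 and 4.94 FPKM in sham hearts. The TAC hearts were uniformly low, and the log2 fold change was -1.37 (SE 0.12, adjusted p = 3.59e-05, limma). Per1 (ENSMUSG00000020893.17), which responds to glucocorticoids and cAMP as well as to the clock, had 6.52, 6.74 and 7.90 FPKM in TAC hearts, against 13.3, 17.2 and 13.0 FPKM in sham hearts. Its mean was 0.486 of the sham mean, with a log2 fold change of -0.94 (SE 0.14, adjusted p = 2.92e-04, limma). Per3 (ENSMUSG00000028957.12), the period gene with the 2 D-boxes printed above, had 2.10, 2.12 and 3.29 FPKM in TAC hearts, against 4.82, 5.04 and 4.50 FPKM in sham hearts. TAC replicate 3 was nearest to the sham range, and the log2 fold change was -0.74 (SE 0.15, adjusted p = 0.0016, limma). In a joint fit of the 9 hearts the call for Per3 was lost (adjusted p = 0.063). Per2 was thus reduced by more than Per1 in proportion, and the ratio of Per2 to Per1 was 0.180 to 0.212 in TAC hearts, against 0.315 to 0.389 in sham hearts.

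Ciart (ENSMUSG00000038550.10), whose product CHRONO represses the activator, showed the largest fold difference of the 10 genes in this comparison. It had 0.348, 0.572 and 0.592 FPKM in TAC hearts, against 4.09, 4.56 and 3.88 FPKM in sham hearts. The mean in TAC hearts was 0.121 of the sham mean, and on the log2(FPKM + 1) scale, which understates it at such low values, the fold change was -1.79 (SE 0.12, adjusted p = 1.59e-05, limma). Dbp (ENSMUSG00000059824.12), the gene of a D-box activator and a classic readout of BMAL1 activity, was less reduced, and not reduced under the scaling without rRNA-like transcripts. It had 23.7, 21.3 and 23.5 FPKM in TAC hearts, against 28.7, 32.8 and 29.6 FPKM in sham hearts. The groups did not overlap, and the log2 fold change was -0.39 (SE 0.12, adjusted p = 0.013, limma). That call was lost with median-ratio scaling (-0.24, adjusted p = 0.096) and in the joint fit (adjusted p = 0.32), and the sign turned, to 0.09, with the rRNA-like transcripts removed. Ciart lies within an annotated lncRNA gene, and Dbp overlaps Sphk2 and Per3 overlaps Uts2 in the RefSeq table, so fragments of these genes may be shared.

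Other quantities that separated the TAC from the sham hearts were the red blood cell markers, summing to 5275 to 7690 FPKM in TAC hearts and 1056 to 1283 FPKM in sham hearts with 5 of 5 genes called higher, the macrophage markers at 264 to 314 against 124 to 138 FPKM with 3 of 5 called higher, and the fibroblast markers at 221 to 248 against 116 to 124 FPKM with 2 of 5 called higher and 1 lower. The cardiomyocyte markers also did, at 6628 to 8315 against 5005 to 5557 FPKM with 3 of 6 called higher and 1 lower. So did the hypertrophy genes, at 1521 to 2319 against 399 to 436 FPKM with 4 of 4 called higher, and the shares of mitochondrial mRNA and rRNA-like transcripts given above. The skeletal muscle list was at 1047 to 1655 against 437 to 532 FPKM with 3 of 3 tested genes called higher. Its sum was mostly Ckm and Acta1, and Acta1 is also in the hypertrophy list, so the 2 sums are not separate measures. Of all genes tested in this comparison, 25.3% passed as higher and 37.7% as lower. Removing the mitochondrial mRNAs together with the rRNA-like transcripts left Arntl at 0.28 (adjusted p = 0.040) and Npas2 at 0.33 (adjusted p = 0.013), and all 7 genes called lower stayed so, with Nr1d1 added to them. The part of the cell markers in the differences was not tested.

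**Figure D2:**
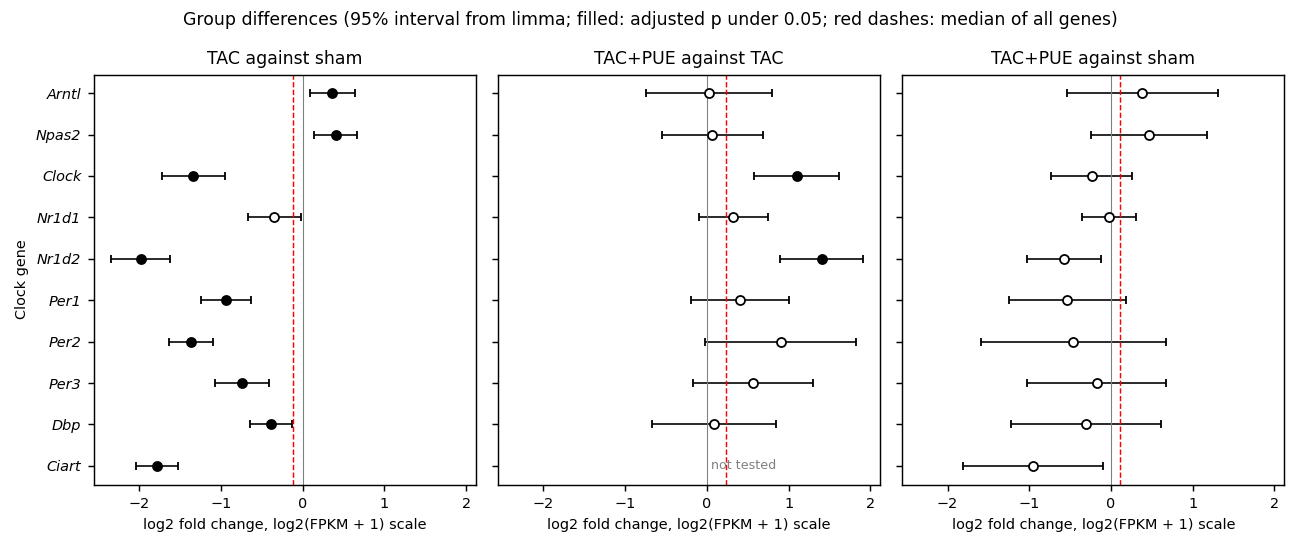
Log2 fold change of the 10 clock genes on the log2(FPKM + 1) scale in the 3 comparisons, with 95% intervals from limma; filled points passed at an adjusted p under 0.05, and red dashes mark the median of all genes (-0.12, 0.24 and 0.11). Intervals are narrow between TAC and sham and wide wherever TAC+PUE hearts enter.

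In TAC+PUE hearts compared with TAC hearts, 2 of the 9 clock genes that could be tested were higher, Clock and Nr1d2, none was lower, and 7 did not pass (limma over 11788 genes). These 2 were also the ones at an unadjusted p under 0.05. Of all genes tested here, 38.4% passed, 32.9% as higher and 5.45% as lower. The median log2 fold change was 0.41 for the 9 genes and 0.24 for all genes. The values did not overlap for 3 of the 10 genes, Clock, Nr1d2 and Ciart, all higher in TAC+PUE hearts, and for 53.5% of all genes tested (43.3% higher and 10.1% lower). The TAC hearts are shared with the comparison above, so a high or low TAC value enters both in opposite directions, and values are set side by side here without a measure of their agreement.

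Clock had 7.18, 4.06 and 3.60 FPKM in TAC+PUE hearts, against 1.04, 2.04 and 2.11 FPKM in TAC hearts. All of the treated hearts were above all TAC hearts, with a log2 fold change of 1.10 (SE 0.24, adjusted p = 0.0061, limma). Nr1d2 had 18.3, 16.2 and 28.9 FPKM in TAC+PUE hearts, against 5.42, 7.25 and 9.16 FPKM in TAC hearts. Its log2 fold change was 1.40 (SE 0.23, adjusted p = 0.0033, limma). Both calls were kept in every alternative in which the genes were tested, with values of 0.55 to 1.72 for Clock and 1.07 to 1.56 for Nr1d2, the filter at 5 FPKM removing Clock. Ciart had 0.731, 1.10 and 4.18 FPKM in TAC+PUE hearts, against 0.348, 0.572 and 0.592 FPKM in TAC hearts. It was not tested because only 2 of the 6 hearts reached 1 FPKM. Without that filter its log2 fold change was 0.83 (SE 0.33, adjusted p = 0.069, limma), and in the joint fit of 9 hearts the adjusted p was 0.045. Between these groups the red blood cell markers summed to 1527 to 6068 FPKM in TAC+PUE hearts and 5275 to 7690 FPKM in TAC hearts, which overlap, with 2 of 5 called lower. Sums that did not overlap were those of the macrophage markers (175 to 228 and 264 to 314 FPKM, 2 of 5 lower and 1 higher) and the cardiomyocyte markers (5040 to 5666 and 6628 to 8315 FPKM, 2 of 6 lower). Of all genes tested between these groups, 32.9% passed as higher and 5.45% as lower. The part of the markers in the differences was not tested.

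The other 7 genes had wide intervals. Per2 had 1.24, 2.86 and 9.52 FPKM in TAC+PUE hearts, against 1.18, 1.37 and 1.67 FPKM in TAC hearts, with a log2 fold change of 0.91 (95% interval -0.02 to 1.83, adjusted p = 0.11, limma). Per3 had 2.39, 2.96 and 8.98 FPKM in TAC+PUE hearts, against 2.10, 2.12 and 3.29 FPKM in TAC hearts, with a log2 fold change of 0.56 (-0.17 to 1.30). In both genes replicate 3 alone was far above the TAC range. Per1 had 5.38, 14.6 and 11.1 FPKM in TAC+PUE hearts, against 6.52, 6.74 and 7.90 FPKM in TAC hearts, with a log2 fold change of 0.41 (SE 0.27), and here replicate 1 was the low one. Without TAC+PUE replicate 1, Per1 and Per2 passed (0.77, adjusted p = 0.017, and 1.41, adjusted p = 0.015, limma), which made 4 genes higher. In that fit 2704 of all 11788 genes passed as higher and 268 as lower. Nr1d1 had 32.7, 36.0 and 47.8 FPKM in TAC+PUE hearts, against 24.4, 34.9 and 32.9 FPKM in TAC hearts, with a log2 fold change of 0.33 (-0.10 to 0.75).

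For Arntl, Npas2 and Dbp the treated hearts lay on both sides of the TAC hearts. Arntl had 3.83, 2.73 and 0.450 FPKM in TAC+PUE hearts, against 1.72, 1.66 and 2.45 FPKM in TAC hearts, with a log2 fold change of 0.02 (-0.75 to 0.80). Npas2 had 3.10, 2.19 and 0.616 FPKM in TAC+PUE hearts, against 1.38, 1.56 and 2.05 FPKM in TAC hearts, with a log2 fold change of 0.06 (-0.56 to 0.68). In both, replicates 1 and 2 were above every TAC heart and replicate 3 below every one. Dbp had 14.7, 19.0 and 50.7 FPKM in TAC+PUE hearts, against 23.7, 21.3 and 23.5 FPKM in TAC hearts, the reverse arrangement, with a log2 fold change of 0.09 (-0.67 to 0.85). The signs of these 3 fold changes turned under median-ratio scaling, as they did on removal of the rRNA-like transcripts, and no direction is given for them.

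Compared with sham hearts, none of the 10 clock genes passed the test in TAC+PUE hearts (0 higher and 0 lower, limma over 11931 genes; 2 genes, Nr1d2 and Ciart, at an unadjusted p under 0.05). Of all genes tested, 17.3% passed, 14.6% as higher and 2.70% as lower. Only Nr1d2 had values that did not overlap, at 18.3, 16.2 and 28.9 FPKM in TAC+PUE hearts, against 32.6, 29.1 and 31.8 FPKM in sham hearts, and 42.6% of all genes tested did not overlap either (32.5% higher and 10.1% lower). Its log2 fold change was -0.58 (95% interval -1.03 to -0.12, adjusted p = 0.077, limma), and that of Ciart was -0.96 (adjusted p = 0.11). The absence of calls does not show equal expression, since the interval of Per2 ran from -1.60 to 0.68 and that of Arntl from -0.54 to 1.30. Without TAC+PUE replicate 3, 7 of the 10 genes passed, and of all 11931 genes 1013 passed as higher and 187 as lower. Arntl (0.90, adjusted p = 0.013) and Npas2 (0.86, adjusted p = 0.014) were then higher than in sham hearts. Nr1d2 (-0.82, adjusted p = 0.0081), Per2 (-1.07, adjusted p = 0.038), Per3 (-0.66, adjusted p = 0.020), Dbp (-0.82, adjusted p = 0.018) and Ciart (-1.44, adjusted p = 0.0035) were then lower. Without TAC+PUE replicate 1 only Clock passed, as lower (-0.49, adjusted p = 0.025, limma), where 2682 of all genes passed as higher and 1019 as lower. Marker sums that did not overlap here either were those of red blood cells (1527 to 6068 FPKM in TAC+PUE hearts and 1056 to 1283 FPKM in sham hearts, 1 of 5 called higher), macrophages (175 to 228 and 124 to 138 FPKM, 3 of 5 higher), fibroblasts (202 to 261 and 116 to 124 FPKM, 4 of 5 higher) and the hypertrophy genes (2003 to 4637 and 399 to 436 FPKM, 4 of 4 higher). The atrial markers were also apart (51.8 to 995 and 22.3 to 23.2 FPKM, 3 of 5 tested higher and 1 lower). Myl7 among them had a log2 fold change of 6.42 (adjusted p = 0.0092, limma). So were the skeletal muscle list, mostly Acta1 and Ckm (1036 to 1705 and 437 to 532 FPKM, 1 of 2 higher), and fat (3.47 to 6.92 and 0.536 to 0.802 FPKM, 1 of 1 higher). The part of these markers in the clock values was not tested.

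The clock profile of TAC+PUE replicate 3 stood apart from that of its group. Against the mean of TAC+PUE replicates 1 and 2, its FPKM was 0.137-fold for Arntl, 0.233-fold for Npas2 and 0.640-fold for Clock. It was 4.65-fold for Per2, 4.56-fold for Ciart, 3.36-fold for Per3, 3.01-fold for Dbp, 1.67-fold for Nr1d2, 1.39-fold for Nr1d1 and 1.11-fold for Per1. The 3 activator genes were thus below both other treated hearts, 6 of the other 7 genes were above both, and Per1 lay between them. Replicate 3 held the highest value of all 9 hearts for Per2, Per3, Nr1d1 and Dbp and the lowest for Arntl and Npas2. It was the highest of 9 for 9.95% and the lowest for 2.04% of 11645 genes with a mean of at least 1 FPKM. A level at least 2-fold above the mean of the other treated hearts was found for 4 of the 10 genes and 0.799% of all genes, and a level at most 0.5 of it for 2 of the 10 and 1.02% of all genes. These counts describe 1 heart and carry no test.

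**Figure D3:**
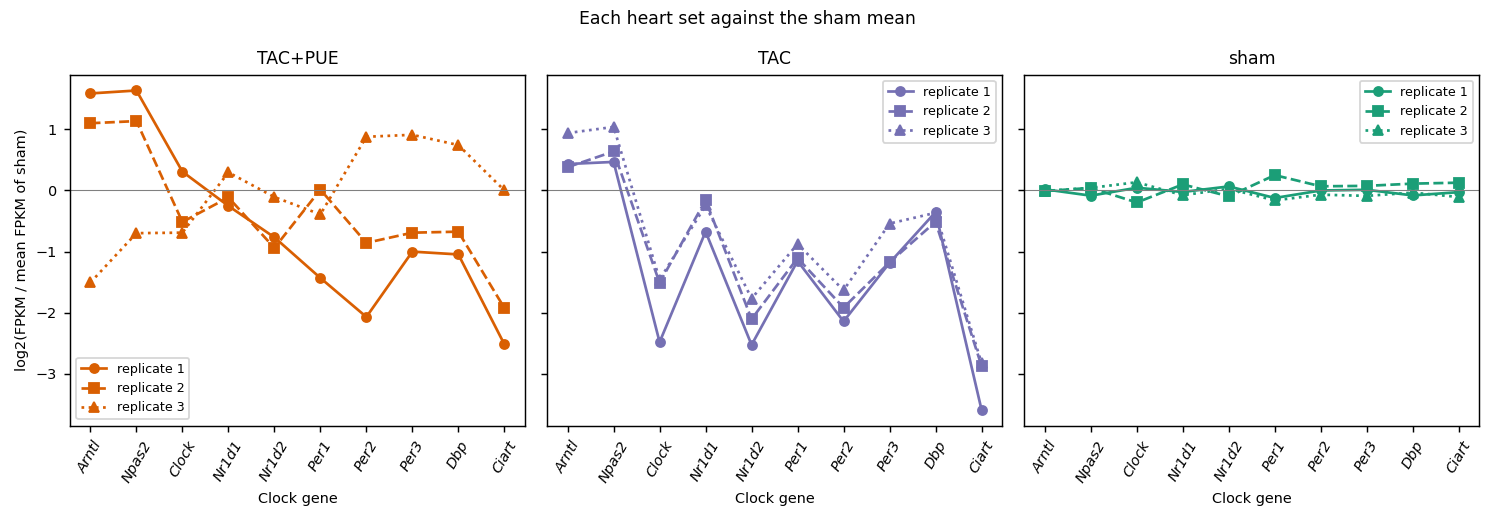
Log2 ratio of each heart to the sham mean FPKM for the 10 clock genes, with 1 line per heart in 3 panels. TAC+PUE replicates 1 and 2 run from high Arntl and Npas2 down to low Ciart, TAC+PUE replicate 3 runs the other way, the TAC lines share 1 jagged shape with Ciart lowest and with Clock, Nr1d2 and Per2 low, and the sham lines stay near 0.

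TAC+PUE replicates 1 and 2 in turn differed from the sham hearts on both sides. Both were above the sham range for Arntl and Npas2 and both below it for 6 genes, Per2, Per3, Nr1d1, Nr1d2, Dbp and Ciart. The share of all genes with these 2 hearts outside the sham range was not counted. With all 3 treated hearts, 42.6% of all genes did not overlap the sham hearts. The counts therefore say nothing particular of the clock genes. Replicate 3 was above the sham range for Per2, Per3, Nr1d1 and Dbp, within it for Ciart, and below it for Arntl, Npas2, Clock, Per1 and Nr1d2. A group mean over these hearts therefore fell near the sham mean for genes in which no treated heart was near it: Dbp averaged 28.1 ± 19.7 FPKM in TAC+PUE hearts and 30.3 ± 2.15 FPKM in sham hearts, and Per3 averaged 4.78 ± 3.65 FPKM in TAC+PUE hearts and 4.78 ± 0.271 FPKM in sham hearts (SD, n = 3 each).

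Ratios taken within a heart, which no library scaling can alter, showed the same contrast. The ratio of Per2 to Arntl was 0.323, 1.05 and 21.2 in TAC+PUE hearts, 0.683, 0.827 and 0.684 in TAC hearts, and 4.01, 4.28 and 3.89 in sham hearts. TAC and sham hearts formed tight, separate groups, while the treated hearts ran from below the one to above the other. The ratio of Dbp to Arntl was 3.83, 6.95 and 113 in TAC+PUE hearts, 13.8, 12.8 and 9.62 in TAC hearts, and 22.2, 25.8 and 23.3 in sham hearts. As a summary over all members, the mean log2 FPKM of the 3 activators minus that of the other 7 genes was -0.24, -1.40 and -4.01 in TAC+PUE hearts, -1.58, -1.47 and -1.36 in TAC hearts, and -2.69, -2.86 and -2.58 in sham hearts.

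The pairs Nr1d2 with Nr1d1 and Ciart with Dbp kept their group order in every treated heart. The ratio of Nr1d2 to Nr1d1 was 0.560, 0.451 and 0.605 in TAC+PUE hearts, between the TAC range of 0.208 to 0.279 and the sham range of 0.699 to 0.861. The ratio of Ciart to Dbp was 0.0498 to 0.0825 in TAC+PUE hearts, 0.0147 to 0.0269 in TAC hearts and 0.131 to 0.143 in sham hearts, again with no overlap. For Npas2 to Clock, TAC+PUE replicates 1 and 2 had 0.432 and 0.540, below the TAC range, and replicate 3 had 0.171, within the sham range of 0.157 to 0.203. Arntl and Npas2 moved together, at a ratio of 0.730 to 1.25 in TAC+PUE hearts, 1.07 to 1.25 in TAC hearts and 1.23 to 1.37 in sham hearts.

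**Figure D4:**
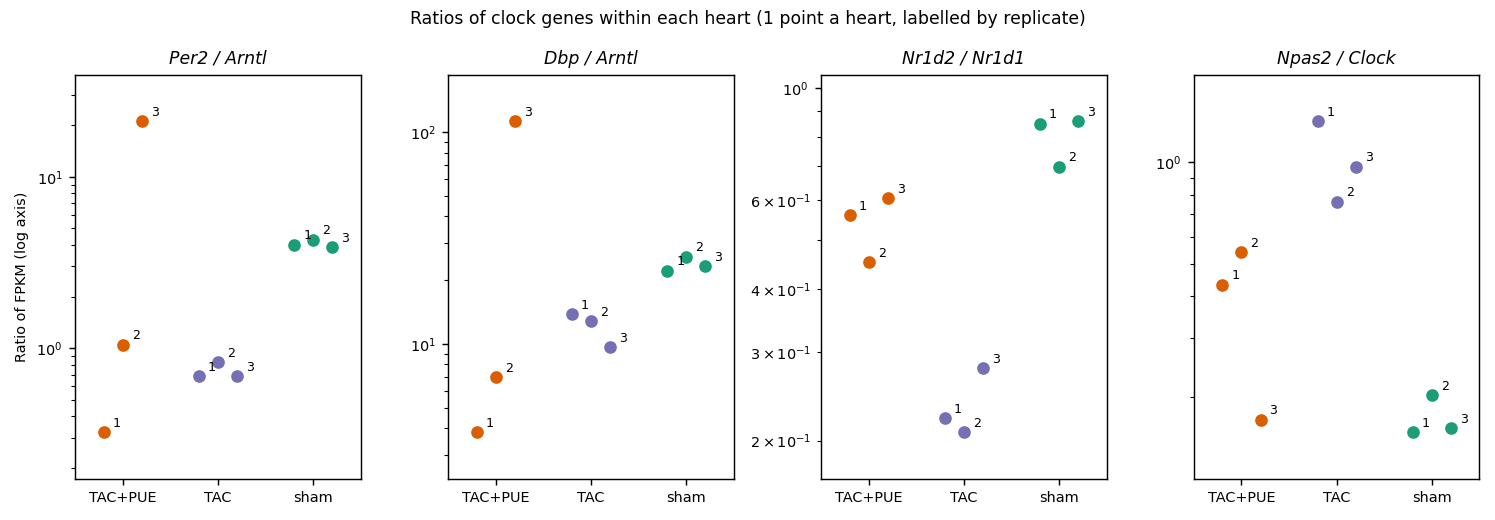
Ratios of FPKM between clock genes within each heart on log axes, 1 point per heart numbered by replicate. Per2 to Arntl and Dbp to Arntl run from 0.323 to 21.2 and from 3.83 to 113 over the 3 TAC+PUE hearts, while Nr1d2 to Nr1d1 separates the 3 groups.

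The spread of the clock genes between treated hearts was large for this data set and that between control hearts was not. The SD of log2(FPKM + 1) over the 3 TAC+PUE hearts was 1.13 for Per2, 0.91 for Arntl, 0.91 for Dbp, 0.84 for Ciart, 0.84 for Per3, 0.70 for Npas2, 0.67 for Per1, 0.45 for Clock, 0.42 for Nr1d2 and 0.28 for Nr1d1. For 8 of the 10 genes this lay above the 95th percentile of 11654 genes, and their median was 0.77, against 0.16 for all genes. In TAC hearts the median SD of the 10 genes was 0.20 and that of all genes 0.19, and in sham hearts both were near 0.08 (0.085 and 0.082), with Arntl among the least variable genes (SD 0.0088). TAC+PUE replicate 3 was not unusual over all genes, where its median distance from the other treated hearts was 0.11 on the log2 scale, against 0.18 for replicate 1 and 0.18 for replicate 2.

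**Figure D5:**
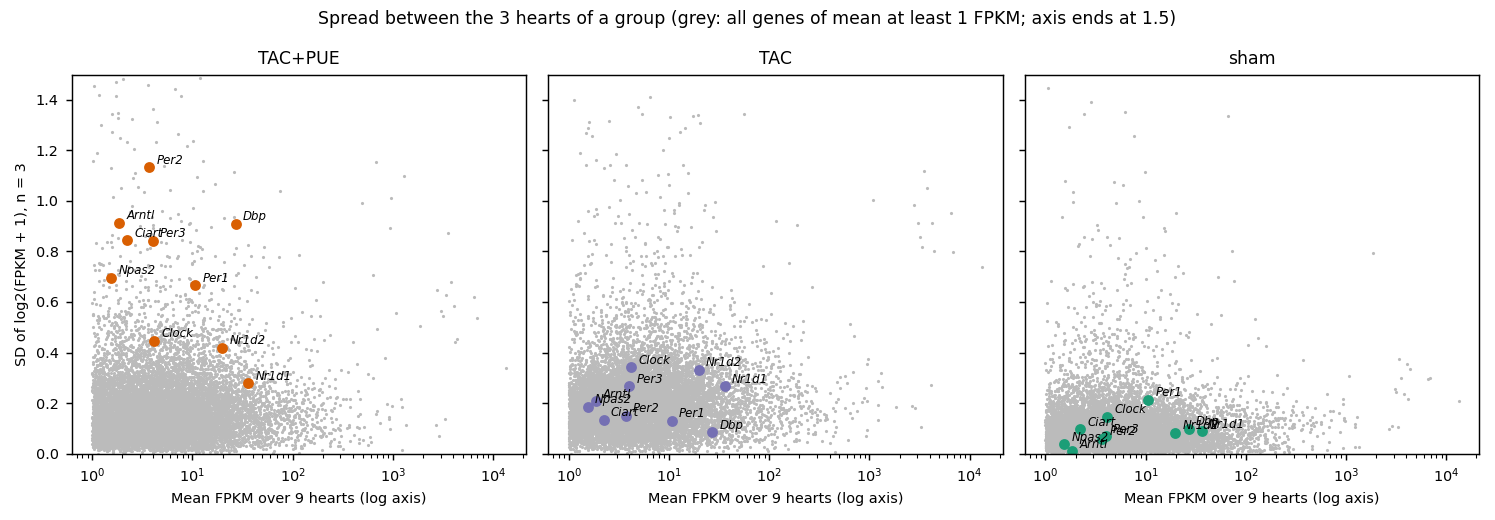
SD of log2(FPKM + 1) between the 3 hearts of a group against the mean FPKM over 9 hearts (log axis), with all genes of mean at least 1 FPKM in grey and the 10 clock genes in colour; the vertical axis ends at 1.5. Clock genes lie at the top of the cloud in TAC+PUE hearts (Per2 at 1.13, Nr1d1 at 0.28) and within it in TAC and sham hearts.

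Some quantities outside the clock also set TAC+PUE replicate 3 apart. All 5 red blood cell markers were at least 2-fold above the mean of replicates 1 and 2, summing to 1527, 3654 and 6068 FPKM in replicates 1, 2 and 3. Alas2, the erythroid heme synthesis enzyme, was at 12.6, 25.6 and 62.5 FPKM. Of 17 immediate early genes, 6 were at most 0.5 of the level of the other treated hearts, with Egr1 at 22.6, 15.7 and 3.75 FPKM and Fos at 6.19, 6.23 and 1.44 FPKM. Myl7, the atrial myosin light chain, was at 27.4, 708 and 245 FPKM, so it was replicate 2 that stood apart there. Of the other atrial markers, Myl4, Sln, Gja5 and Kcna5 were also highest in replicate 2. Bmp10 went the other way, at 4.01, 0 and 5.45 FPKM, and how much atrium each sample held was not measured. Mitochondrial mRNA took 26.0, 14.2 and 22.7% in the same order. The part of these quantities in the clock profile was not tested.

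Genes of the clock outside the 10 were followed through lists of its partners. Calls for all gene lists in this report are those of the values as deposited. The other scalings, which moved the calls over all genes, were not applied to the lists. Among 7 other clock transcription factors in the tables (of 9 listed), 5 were lower in TAC than in sham hearts and 1 was higher, with a median log2 fold change of -0.46, against 37.7% lower, 25.3% higher and a median of -0.12 over all genes. Rora, which activates Arntl through the same DNA element that the REV-ERB receptors occupy, was lower in TAC hearts by a log2 fold change of -1.17 (SE 0.14), and Hlf, a D-box activator, by -0.97 (SE 0.21). Nfil3, the D-box repressor that opposes DBP, was the one higher, at 5.35, 5.95 and 5.47 FPKM in TAC hearts, against 2.68, 2.70 and 2.28 FPKM in sham hearts (log2 fold change 0.89, SE 0.12, adjusted p = 1.6e-04, limma). It was the one such factor also higher in TAC+PUE than in sham hearts, by 0.75 (adjusted p = 0.018, limma), with Rora lower by -0.37 (adjusted p = 0.042, limma). Of all genes, 14.6% were higher and 2.70% lower between those groups. In TAC+PUE compared with TAC hearts, Rora was higher by 0.80 (adjusted p = 0.0055) and the other 6 factors did not pass, where 32.9% of all genes were higher.

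Of 12 cryptochrome, kinase and ligase genes tested (13 listed), which act on the stability and entry into the nucleus of PER and CRY, 5 were lower and none higher in TAC than in sham hearts, a share lower that is near the 37.7% of all genes. The largest were Csnk1a1 (-1.30, SE 0.22) and Csnk2a1 (-1.27, SE 0.16), which encode casein kinase subunits, then Usp2 (-0.64) and Gsk3b (-0.44). In TAC+PUE compared with TAC hearts 4 were higher, Csnk1a1 (1.23), Csnk2a1 (1.04), Gsk3b (0.44) and Btrc (0.41), near the 32.9% of all genes called higher. Where 17.3% of all genes passed, in TAC+PUE compared with sham hearts, none of the 12 did (2 at an unadjusted p under 0.05, limma). Their medians were -0.26, 0.26 and 0.03 in the 3 comparisons, and the medians of all genes were -0.12, 0.24 and 0.11. The cryptochromes themselves passed in none of the comparisons. Cry1 was at 2.47, 2.85 and 4.77 FPKM in TAC+PUE hearts, 2.84, 3.21 and 3.14 FPKM in TAC hearts, and 2.36, 2.56 and 2.15 FPKM in sham hearts, and Cry2 at 3.90, 5.01 and 8.07 FPKM, 4.38, 4.38 and 5.01 FPKM, and 5.22, 5.74 and 5.07 FPKM in the same group order. TAC+PUE replicate 3 was the highest of the 9 hearts for both.

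Among 10 chromatin and accessory partners of the clock, 7 were lower and 1 higher in TAC than in sham hearts, with a median of -0.58, against 37.7% lower, 25.3% higher and a median of -0.12 over all genes. The deacetylase gene Sirt1 (-0.98), the REV-ERB corepressor gene Ncor1 (-0.96) and the coactivator genes Crebbp (-0.75) and Ep300 (-0.72) were lower, and Timeless was higher by 0.70. In TAC+PUE compared with TAC hearts 7 were higher, among them Ncor1 (0.74), Ep300 (0.71), Sirt1 (0.67) and Wee1 (0.60), with a median of 0.55, against 32.9% higher and a median of 0.24 over all genes. Between TAC+PUE and sham hearts none of the 10 passed (2 at an unadjusted p under 0.05, limma), where 17.3% of all genes passed. Of 12 genes known as clock-controlled outputs in heart, 4 were lower in TAC than in sham hearts and 1 was higher, which does not exceed the 37.7 and 25.3% of all genes, and the list median of -0.03 was not below that of all genes. The metabolic genes Pdk4, which encodes a kinase that holds back glucose oxidation, Ucp3 and Nampt carried the differences. Pdk4 had 131, 115 and 87.8 FPKM in TAC+PUE hearts, 14.7, 20.4 and 20.6 FPKM in TAC hearts, and 203, 199 and 200 FPKM in sham hearts. Its log2 fold changes were -3.38 for TAC against sham, 2.51 for TAC+PUE against TAC and -0.87 for TAC+PUE against sham (adjusted p = 0.011 for the last, limma). Ucp3 had -2.37, 1.49 and -0.89, and Nampt -1.96, 1.28 and -0.67, in the same order of comparisons, and all of these passed. Unlike Dbp or Per2, Pdk4 was not raised in TAC+PUE replicate 3, where it was 0.715-fold the mean of the other treated hearts.

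Glucocorticoid-responsive genes were listed because Per1 also answers to glucocorticoids. Of 9 tested, 6 were lower and none higher in TAC than in sham hearts (median -0.89), where 37.7% of all genes were lower and 25.3% higher with a median of -0.12, led by the metallothionein gene Mt2 (-1.88), Errfi1 (-1.29), Mt1 (-1.08) and Sgk1 (-0.95). In TAC+PUE compared with TAC hearts 4 were higher, Mt2 (1.51), Mt1 (0.85), Sgk1 (0.61) and Tsc22d3 (0.56), where 32.9% of all genes were higher. Compared with sham hearts only Klf9 passed, as lower (-0.56, adjusted p = 0.018, limma), where 14.6% of all genes were higher and 2.70% lower.

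Genes with a profile over the 9 hearts like that of Dbp or Arntl were sought among 5694 genes with a mean of at least 5 FPKM. The 10 clock genes and predicted or clone names were left out. Likeness was the root mean square difference of centred log2(FPKM + 1) values. Most like Dbp, which itself varied by 0.46 about its mean, were Tef (0.21), Cry2 (0.26), Rhobtb1 (0.29), Herpud1 (0.30) and Xdh (0.31). Tef, a paralog of Dbp, had 10.7, 14.0 and 25.8 FPKM in TAC+PUE hearts, 10.6, 12.4 and 13.8 FPKM in TAC hearts, and 16.3, 19.1 and 16.2 FPKM in sham hearts. For Arntl, which varied by 0.48, the nearest were Fbn1 (0.22), Cyr61 (0.28), Casq2 (0.28), Adam19 (0.29) and Lgals9 (0.31). Npas2 was nearer (0.12) but was not a candidate. The added 1 FPKM understates the changes of Arntl, at 0.450 to 3.83 FPKM, more than those of abundant genes. Fbn1, the gene of the matrix protein fibrillin, had 44.4, 40.1 and 20.9 FPKM in TAC+PUE hearts, 24.5, 27.7 and 29.6 FPKM in TAC hearts, and 24.9, 26.8 and 25.1 FPKM in sham hearts. Among the 10 genes themselves the closest pairs were Arntl with Npas2 (0.12), Per3 with Dbp (0.24) and Per2 with Ciart (0.27).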

How the data were processed

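Per the study's methods, the authors trimmed the reads of strand-specific libraries, mapped them with Hisat2, used StringTie for assembly and quantification, and took values with Ballgown; the processing notes name the build mm9. The methods speak of TPM, but the authors deposited gene tables headed FPKM, 1 for TAC with sham and 1 for TAC+PUE with TAC, whose 13646 shared genes have the same TAC values. Genes whose group means are both below 0.500 FPKM are absent. Of 2534 low genes at most 2 shared a ratio between libraries, so whole reads were not recovered and depth is unknown. The lncRNA lists were not used here.

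limma (version 3.58.1, R 4.3.3; eBayes with trend, two-sided) was run on log2(FPKM + 1) with 3 hearts per group, for genes that reached 1 FPKM in 3 or more of the 6 libraries, with Benjamini-Hochberg adjustment at 0.05, and was tested on simulated data. The test had been set for TPM and was run on FPKM. Replicates are separate mice. TAC+PUE and sham values, used together over the genes of both tables, come from separate tables. The alternatives were other pseudocounts, filters, variance models, scalings, a joint fit, a block for the replicate number, and fits with libraries left out. The 10 genes, the gene lists and the rule for naming genes were chosen with earlier results of these data known. That rule names up to 4 called members of a list by size, and the 5 genes most like Arntl and Dbp. Timeless, Cry1, Egr1, Fos, Hspa1a and Alas2 fall outside it and were chosen after their values were seen. Gene names came from a RefSeq table that matched 14246 of 14280 identifiers.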

Additional observations from a re-analysis of the deposited data

How the results depend on the processing

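The counts of clock genes called changed with the processing, and some of them with single hearts. Between TAC and sham hearts, 2 were higher, but 0 with a filter at 5 FPKM (which leaves 5 genes to test), 0 in the joint fit and 0 to 2 when 1 heart was left out, and 7 were lower, but 4 with that filter, 5 in the joint fit, 6 with median-ratio scaling, 6 with rRNA-like transcripts removed, 8 with mitochondrial mRNAs removed as well, and 7 to 8 when 1 heart was left out. Between TAC+PUE and TAC hearts, 2 were higher, but 1 with that filter (4 genes tested) and 2 to 4 when 1 heart was left out. Between TAC+PUE and sham hearts, none was higher or lower, but 0 to 2 and 0 to 5 were when 1 heart was left out.

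Signs turned between TAC and sham hearts for Nr1d1 (0.14) and Dbp (0.093) with rRNA-like transcripts removed. Between TAC+PUE and TAC hearts, Arntl was -0.14 with a pseudocount of 0.1, -0.17 with median-ratio scaling, -0.18 with rRNA-like transcripts removed and -0.0105 with mitochondrial mRNAs removed as well; Npas2 was -0.0015, -0.13 and -0.13 with the first 3 of these settings, and Dbp -0.21 with median-ratio scaling and -0.22 with rRNA-like transcripts removed. The libraries of Myl7 at least 100 FPKM (the Myl7-high libraries) were also left out, which leaves 1 TAC+PUE heart assumed to vary like the rest. Without them Per1 was -0.26, Per2 -0.0232 and Dbp -0.58. Leaving out 1 heart gave -0.33 to 0.54 for Arntl, -0.22 to 0.45 for Npas2 and -0.43 to 0.43 for Dbp. Between TAC+PUE and sham hearts, Nr1d1 was 0.16 with rRNA-like transcripts removed and Clock 0.27 without the Myl7-high libraries, and leaving out 1 heart gave -1.07 to 0.0443 for Per2, -0.66 to 0.12 for Per3, -0.18 to 0.0902 for Nr1d1 and -0.82 to 0.0399 for Dbp. The causes were not tested. Of single-gene values under the alternatives, 151 of 165, 123 of 148 and 140 of 166 kept their sign and call in the 3 comparisons.

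The replicate numbers are shared by the groups, but same-numbered hearts did not all deviate together between TAC and sham (correlations -0.02, -0.00 and 0.06) or between TAC+PUE and TAC (-0.28, -0.11 and 0.20). Between TAC+PUE and sham the correlations were all positive (0.19, 0.31 and 0.04), and each TAC+PUE heart correlated best with the sham heart of its number. Sham replicate 3, however, correlated better with TAC+PUE replicate 1 (0.16) than with its own number. With the number as a block, Nr1d1 passed between TAC and sham hearts (-0.35, adjusted p = 0.040, limma), Per2 between TAC+PUE and TAC hearts (0.91, adjusted p = 0.048), and Nr1d2 between TAC+PUE and sham hearts (-0.58, adjusted p = 0.040). The last gave 1 gene lower in place of 0. For Nr1d1 between TAC and sham hearts the SE was larger with the block (0.154) than without it (0.147), so its estimate was no more precise.

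Over all genes, counts higher and lower were 4117 and 4179 with median-ratio scaling and 2670 and 5448 with both transcript groups removed for TAC against sham (2955 and 4410 as deposited), 2482 and 2387 with median-ratio scaling and 2390 and 2205 with rRNA-like transcripts removed for TAC+PUE against TAC (3883 and 642), and 948 and 719, 3625 and 140, and 898 and 712 in these 3 scalings for TAC+PUE against sham (1738 and 322), where leaving out sham replicate 3 left 361 and 43.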

Other observations

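Immediate early genes, which respond within minutes to handling, stretch and hormones, did not move one way in TAC hearts. Of 16 tested, 5 were higher and 6 lower than in sham hearts, shares close to the 25.3 and 37.7% of all genes, so the counts say nothing particular of the list. Ier2 (1.496) and Junb (1.21) were higher, and Klf6 (-1.35) and Dusp1 (-1.01), which encode a zinc finger factor and a kinase phosphatase, were lower (limma, log2 fold change). Junb, an AP-1 subunit, had 17.3, 24.6 and 12.3 FPKM in TAC+PUE hearts, 18.8, 17.9 and 21.5 FPKM in TAC hearts and 8.21, 7.73 and 7.39 FPKM in sham hearts, and was also higher in TAC+PUE than in sham hearts by 1.07 (adjusted p = 0.020). In TAC+PUE compared with TAC hearts, 4 of 17 were higher, Klf6 (0.81), Btg2 (0.80), Nr4a3 (0.66) and Dusp1 (0.64), and Ier2 was lower (-0.63), where 32.9% of all genes were higher and 5.45% lower.

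Of 8 temperature-responsive genes, 3 heat shock genes were lower in TAC than in sham hearts, Hsph1 (-0.79), Hsp90aa1 (-0.77) and Hspa8 (-0.54), and the same 3 were higher in TAC+PUE than in TAC hearts, by 0.55, 0.97 and 0.55. The comparisons share the TAC hearts, and the shares called are near those of all genes (37.7% lower and 32.9% higher). The cold-induced gene Rbm3 was higher in TAC+PUE than in sham hearts by 0.39 (adjusted p = 0.019, limma). The inducible Hspa1a had 3.53, 9.18 and 2.18 FPKM in TAC+PUE replicates 1, 2 and 3, so the high heart there was replicate 2.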
